A study of Mus musculus with 36 samples.

Results

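Liver RNA of 18-month-old mice of the inbred strain C57BL/6JN was compared between the regenerating state labelled 48 and the state labelled before. The comparison holds 6 of the 36 libraries of the series, 3 before and 3 at 48, taken by the age and time point in their titles and by nothing measured. The labels give the number 48 without a unit and do not say how regeneration was induced. No genotype, allele or drug is named, and the old mice are called the treated group of the study only because of their age. The design text calls the 3 libraries of a group biological replicates. Young mice of 4 months before and at 48 and old mice at 72, with 3 libraries each, serve below as points of reference, and all groups share strain and tissue. Whole liver was sequenced, so fewer cells of a type and less RNA per cell cannot be told apart in any value below.

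As background, the liver makes up lost tissue mainly by division of resident hepatocytes, which leave rest, pass through G1 under cyclin D and its kinases, copy their DNA with the MCM helicase and then divide. While they do so they must keep up metabolism and the secretion of blood proteins, and inflammatory cytokines switch on the acute phase genes. Many metabolic programmes of hepatocytes are known to be turned down for a time, among them fat synthesis and detoxification.

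The 6 libraries held 4393173 to 4909023 counts, within the 2328233 to 6034446 of the series, and 15803 to 20255 genes were detected in each, with the highest number in replicate 1 before. Replicate 2 at 48 stood apart from all other libraries. Across 11551 genes on log2(CPM + 1), where CPM is the count scaled to a common library total (TMM-adjusted), it correlated at r = 0.89 with replicate 1 and 0.87 with replicate 3 of its own group, which correlated with each other at 0.95. The 33 pairs of replicates in the other groups lay between 0.94 and 0.99 (genes are not independent replicates, so these values only describe the libraries). The biological coefficient of variation, the spread between replicates beyond counting noise, was 40.6% in old livers at 48 and 27.7% without that library, against 25.1% in old livers before. Transcripts of 4 Y-linked genes were present in replicate 1 of both groups and at 0 in the other 4 libraries, so each group held 1 library of that kind. Marker genes of hepatocytes summed to 49451 to 64624 CPM before and to 57262, 42078 and 58656 CPM in replicates 1, 2 and 3 at 48. Markers of skeletal muscle and pancreas stayed under 10 CPM in sum in each of the 6 libraries. The counts of each list are therefore given with all libraries and without replicate 2, and a value for a single gene is given without it where its call was lost or gained or its fold change, where printed, moved by over 1.5 times.

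All 36 libraries entered 1 fit, which lends the groups a common estimate of spread, and genes with an adjusted p under 0.05 count as changed. The shared estimate was a biological coefficient of variation of 24.7%, against 40.6% within old livers at 48. Adjusted p-values can therefore be too small for genes that vary more in that group. Of 13436 genes tested, 1648 (12.3%) rose and 1621 (12.1%) fell in old livers between before and 48, together 24.3%. Without replicate 2, 1280 of 13682 genes (9.36%) rose and 1049 (7.67%) fell, together 17.0%. There were 1887 genes with the same call both times, 1009 higher and 878 lower, and 0 genes with opposite calls. A further 1382 genes were called only with replicate 2 and 429 only without it. In 60.4% of the called genes replicate 2 was the most changed of the 3 libraries, while over all genes tested it was the highest of the 3 in 39.4% and the lowest in 39.9%. Fewer genes passed in fits of the compared libraries alone. By themselves, the 6 libraries gave 225 calls among 12328 genes (1.83%), 0.803% higher and 1.02% lower, and the 5 libraries without replicate 2 gave 610 among 12630 (4.83%), 2.28% higher and 2.55% lower. The median log2 change over all genes tested was 0.01, and the medians of gene lists below are to be read against it.

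**Figure D1:**
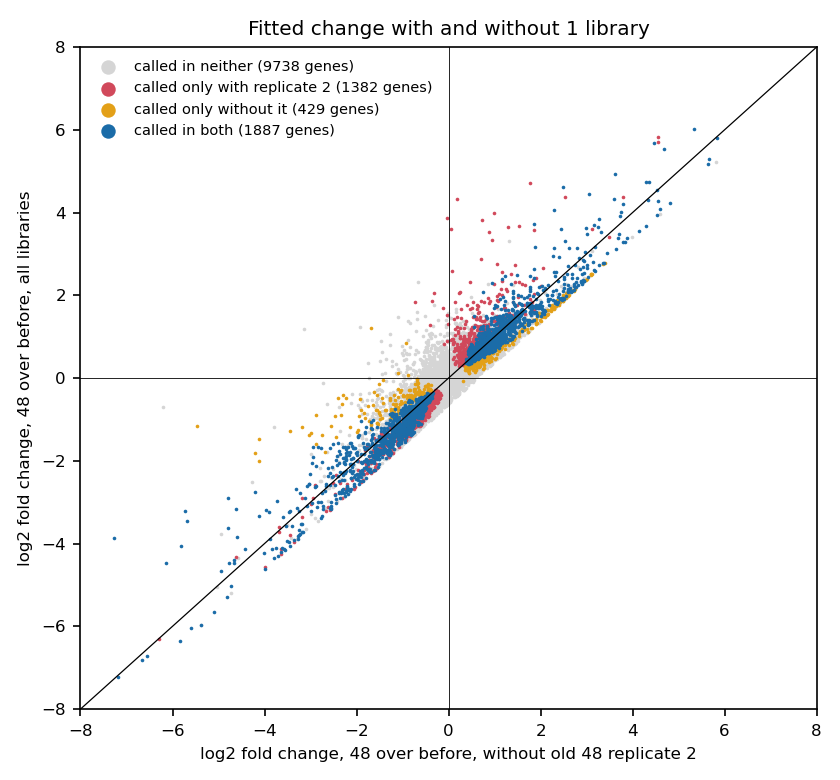
Fitted log2 fold change of each tested gene, 48 over before in old liver, without replicate 2 at 48 (x axis) and with all libraries (y axis), coloured by call. The 1887 genes called both times lie in the 2 quadrants of equal sign, while 1382 genes were called only with replicate 2 and 429 only without it (2 genes lie outside the axes).

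**Figure D2:**
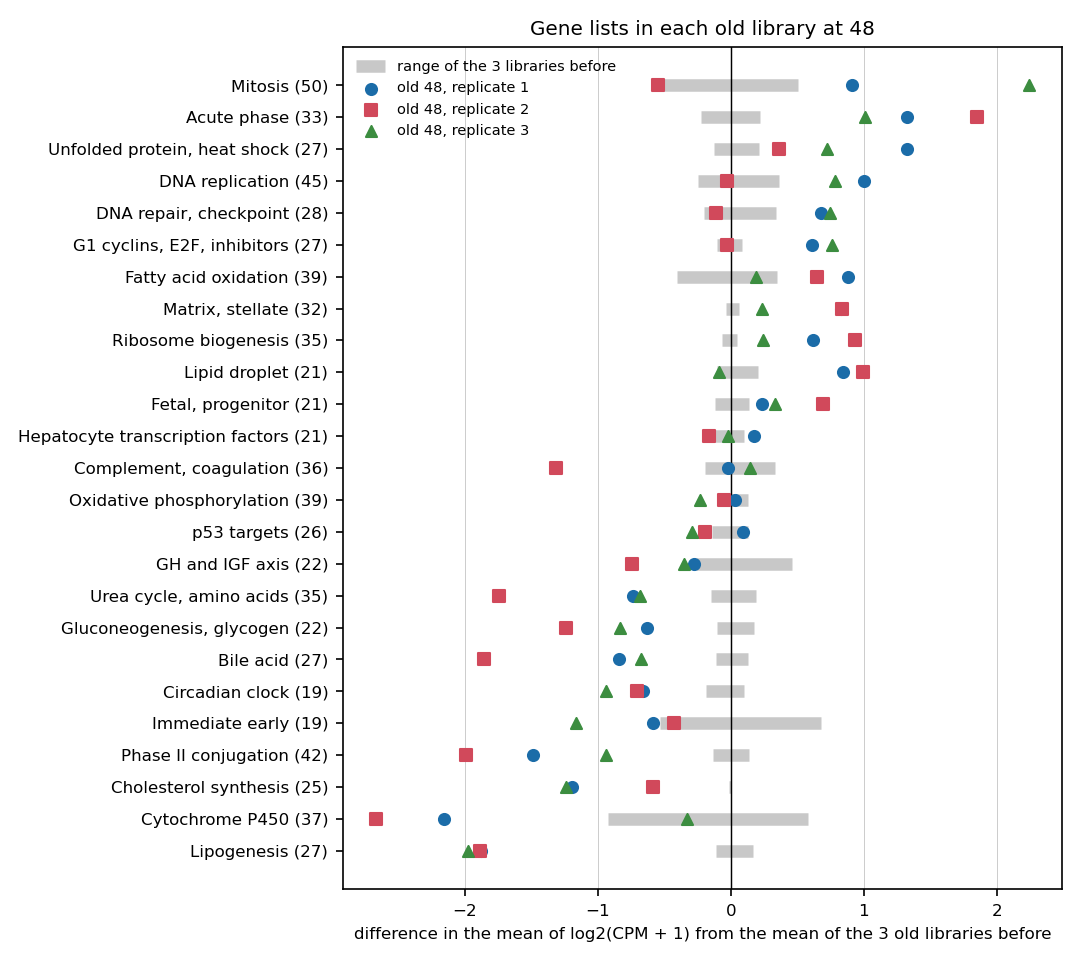
Mean of log2(CPM + 1) over the tested genes of each of the 25 pathway lists in the 3 old libraries at 48, as the difference from the mean of the 3 old libraries before (number of genes in brackets, grey bars give the range of the libraries before). The 3 symbols nearly coincide for lipogenesis, while replicate 2 lies apart for complement, urea cycle and bile acid genes. For mitosis all 3 are spread widely, at 0.91, -0.54 and 2.25 in replicates 1, 2 and 3.

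Averaged over the mitosis list, cell cycle genes were higher at 48 than before in replicates 1 and 3 and not in replicate 2. Single genes departed from this split, as given below. Of 50 genes of mitosis, 13 were called higher and 0 lower, with a median log2 change of 1.73. Without replicate 2 the count was 35 higher and 0 lower, with a median of 2.28. Averaged over the 50 genes, log2(CPM + 1) was 2.42, 1.94 and 1.40 before and 2.83, 1.38 and 4.17 in replicates 1, 2 and 3 at 48. Replicate 3 thus stood above the libraries before, replicate 1 a little above the highest of them, and replicate 2 was below the lowest. Replicate 2 was the lowest of the 3 libraries at 48 for 48 of the 50 genes. Mki67, which encodes a nuclear antigen of cycling cells, was at 55.2, 84.2 and 31.3 CPM before and at 154, 14.0 and 561 CPM at 48. Its log2 change was 2.10 ± 0.74 (SE, n = 3 per group, adjusted p = 0.0393) with all libraries and 2.69 without replicate 2 (adjusted p = 0.00497). The call of Mki67 was lost in 10 of 19 alternative fits, among them those without replicate 3 at 48 and without each library before. Over these fits its log2 change ran from 0.56 to 2.69.

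Ccnb1, the mitotic cyclin B1, was at 1.64, 0.223 and 0 CPM before and at 1.56, 0 and 9 CPM at 48, so that only replicate 3 exceeded the range before. Its change passed the test without replicate 2 (adjusted p = 0.0362) and not with it (adjusted p = 0.104). Cdk1, the kinase that cyclin B1 activates, was at 1.88, 1.12 and 1.37 CPM before and 2.89, 1.01 and 7.16 CPM at 48, and passed in neither fit (adjusted p = 0.222 and 0.119). Kif22, a chromosome-binding kinesin, and Ncapd2, a subunit of condensin, were the called mitosis genes with the smallest adjusted p. Kif22 was at 3.99, 2.23 and 1.37 CPM before and 8.89, 4.86 and 17.2 CPM at 48 (log2 change 2.02 ± 0.52, adjusted p = 0.00564). Ncapd2 went from 7.75, 5.14 and 4.33 CPM to 15.6, 16.0 and 24.1 CPM (1.69 ± 0.44, adjusted p = 0.00664). In these 2 genes all 3 libraries at 48, replicate 2 included, were above all 3 before.

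Averaged over their list, genes of DNA replication followed the same split between libraries, with log2(CPM + 1) at 3.66, 2.64 and 3.45 at 48 and at most 3.02 before. In single genes such as Fen1 and Mcm7, replicate 2 too was above all libraries before. Of 45 tested, 10 rose and 1 fell, with a median log2 change of 0.93, and without replicate 2, 18 rose and 0 fell, with a median of 1.22. Mcm2, a subunit of the replicative helicase, was at 13.1, 7.15 and 3.42 CPM before and 57.3, 12.2 and 23.3 CPM at 48 (1.96 ± 0.51, adjusted p = 0.00632). Replicate 1 was the highest library for Mcm2, while replicate 3 was the highest for Mki67 and Ccnb1. Fen1, the nuclease that trims Okazaki fragments, rose from 17.1, 7.82 and 7.07 CPM to 45.6, 26.5 and 34.2 CPM (1.73 ± 0.35, adjusted p = 0.000964). Mcm7 rose from 22.3, 15 and 11.9 CPM to 53.8, 24.1 and 44.0 CPM (1.31 ± 0.31, adjusted p = 0.00319). Tk1, thymidine kinase, was the member that fell, from 12.2, 22.6 and 29.0 CPM to 4.67, 6.28 and 13.7 CPM (adjusted p = 0.0136), and its fall did not pass without replicate 2 (adjusted p = 0.0733).

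The promoters of these genes are printed because proliferation genes are known to share short regulatory elements. Windows of 300 bases, from 250 before to 50 after the start, came from RefSeq on the build GRCm38.p6, and letters were searched on both strands. The letters TTTGAA, known as the cell cycle homology region, were found for 33 of 42 mitosis genes with a window (78.6%) and in 17.9% of all 32851 windows. The letters TTCCCGC, a form of the E2F element, were found for 17 of 38 replication genes (44.7%) and in 4.60% of all windows. A list gene counted if any of its windows held the letters, while all windows were counted singly. Genes with several windows had more chances, so the shares of genes and of windows are unlike measures. Of the members called higher and with a window, 8 of 11 mitosis genes and 6 of 9 replication genes held their letters. The 250 bases before the start are shown for the genes called higher with the smallest adjusted p whose match lies there. Genes with several windows and those of a single chromosome were left out of this choice. Sequences run 5′ to 3′ on the strand of the gene, with matches in capitals (TTCAAA is the same element on the other strand).
Kif22, chr7:127042421-127042670 (minus strand): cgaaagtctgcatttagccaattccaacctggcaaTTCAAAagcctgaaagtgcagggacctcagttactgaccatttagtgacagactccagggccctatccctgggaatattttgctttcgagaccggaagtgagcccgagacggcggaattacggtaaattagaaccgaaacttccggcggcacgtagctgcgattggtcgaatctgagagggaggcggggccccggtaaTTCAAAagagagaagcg
Ncapd2, chr6:125191587-125191836 (minus strand): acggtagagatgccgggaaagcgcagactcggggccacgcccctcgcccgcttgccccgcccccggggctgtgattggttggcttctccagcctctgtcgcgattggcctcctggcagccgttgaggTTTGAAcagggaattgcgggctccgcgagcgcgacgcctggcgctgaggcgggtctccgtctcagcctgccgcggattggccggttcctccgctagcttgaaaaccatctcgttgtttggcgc
Chaf1a, chr17:56040166-56040415 (plus strand): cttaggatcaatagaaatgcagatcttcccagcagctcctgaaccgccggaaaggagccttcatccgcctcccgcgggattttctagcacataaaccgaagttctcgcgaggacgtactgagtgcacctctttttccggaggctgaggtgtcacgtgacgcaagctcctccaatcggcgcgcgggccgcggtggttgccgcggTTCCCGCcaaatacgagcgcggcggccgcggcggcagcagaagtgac
Rrm1, chr7:102441445-102441694 (plus strand): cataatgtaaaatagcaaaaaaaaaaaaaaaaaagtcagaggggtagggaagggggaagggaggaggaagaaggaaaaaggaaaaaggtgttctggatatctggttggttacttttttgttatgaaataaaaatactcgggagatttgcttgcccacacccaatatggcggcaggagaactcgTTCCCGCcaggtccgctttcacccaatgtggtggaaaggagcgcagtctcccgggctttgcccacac
Kif22 holds 2 matches and the other 3 genes 1 each. Chaf1a, a subunit of the chromatin assembly factor that loads histones on new DNA, was at 7.28, 2.68 and 1.60 CPM before and 26.5, 9.52 and 19.2 CPM at 48 (2.25 ± 0.54, adjusted p = 0.00345). Rrm1, the large subunit of ribonucleotide reductase, rose from 13.1, 8.94 and 11 CPM to 24.9, 15.6 and 20.5 CPM (0.88 ± 0.28, adjusted p = 0.0208). In both genes the 3 libraries at 48 lay above the 3 before, with replicate 2 the lowest at 48.

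Among G1 cyclins, E2F factors and inhibitors of the cycle, 8 of 27 tested genes rose and 2 fell, and 9 rose and 1 fell without replicate 2. Ccnd1, cyclin D1, was at 139, 291 and 247 CPM before and at 448, 40.5 and 658 CPM at 48. Replicates 1 and 3 lay above all libraries before and replicate 2 below all of them, and the change passed in neither fit (adjusted p = 0.39 and 0.0959). Ccne1, cyclin E1, which acts at the entry to S phase, rose from 2.11, 0.223 and 0 CPM to 7.11, 2.63 and 5.32 CPM (2.66 ± 0.65, adjusted p = 0.00419). Cdkn1a, the inhibitor p21, rose from 9.39, 2.68 and 3.65 CPM to 54.9, 191 and 69.7 CPM (4.33 ± 0.70, adjusted p = 0.000109) and was highest in replicate 2. Without replicate 2 its log2 change was 3.60 (adjusted p = 0.000883). Rbl2, the pocket protein p130 of resting cells, fell from 61.5, 63.2 and 75.3 CPM to 38.2, 43.6 and 42.3 CPM (-0.69 ± 0.15, adjusted p = 0.00198). Foxm1, a transcription factor of the mitotic genes, was at 4.46, 2.90 and 1.83 CPM before and 6.67, 2.03 and 24.3 CPM at 48 and was called only without replicate 2 (adjusted p = 0.0234). Myc and Ezh2 passed in neither fit. Cdkn1a, also a target of p53, was counted with the G1 genes above and not in the list of p53 targets. Of the 26 targets in that list, 3 rose (11.5%) and 4 fell (15.4%), near the 12.3% and 12.1% over all genes tested. Without replicate 2, 3 rose and 1 fell. The risers Aen and Zmat3 were at 46.2, 62.6 and 26.4 CPM and 55.8, 64.6 and 40.1 CPM at 48, against at most 23.2 and 36.9 CPM before. Sesn1 and Rrm2b were among the fallers, with log2 changes of -0.96 to -0.67 and -0.85 to -0.45 over the alternative fits. The fall of Sesn1 did not pass without replicate 2.

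Of 28 genes of DNA repair and checkpoints, 7 rose and 1 fell, and 9 rose and 0 fell without replicate 2. Brca1, which acts in repair by homologous recombination, rose from 16.2, 9.61 and 12.3 CPM to 46.2, 26.9 and 42.1 CPM (1.60 ± 0.31, adjusted p = 0.000556). H2afx, the histone variant H2AX, was at 20.9, 17.4 and 7.53 CPM before and 42.7, 17.0 and 58.1 CPM at 48 (1.36 ± 0.44, adjusted p = 0.0240).

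**Figure D3:**
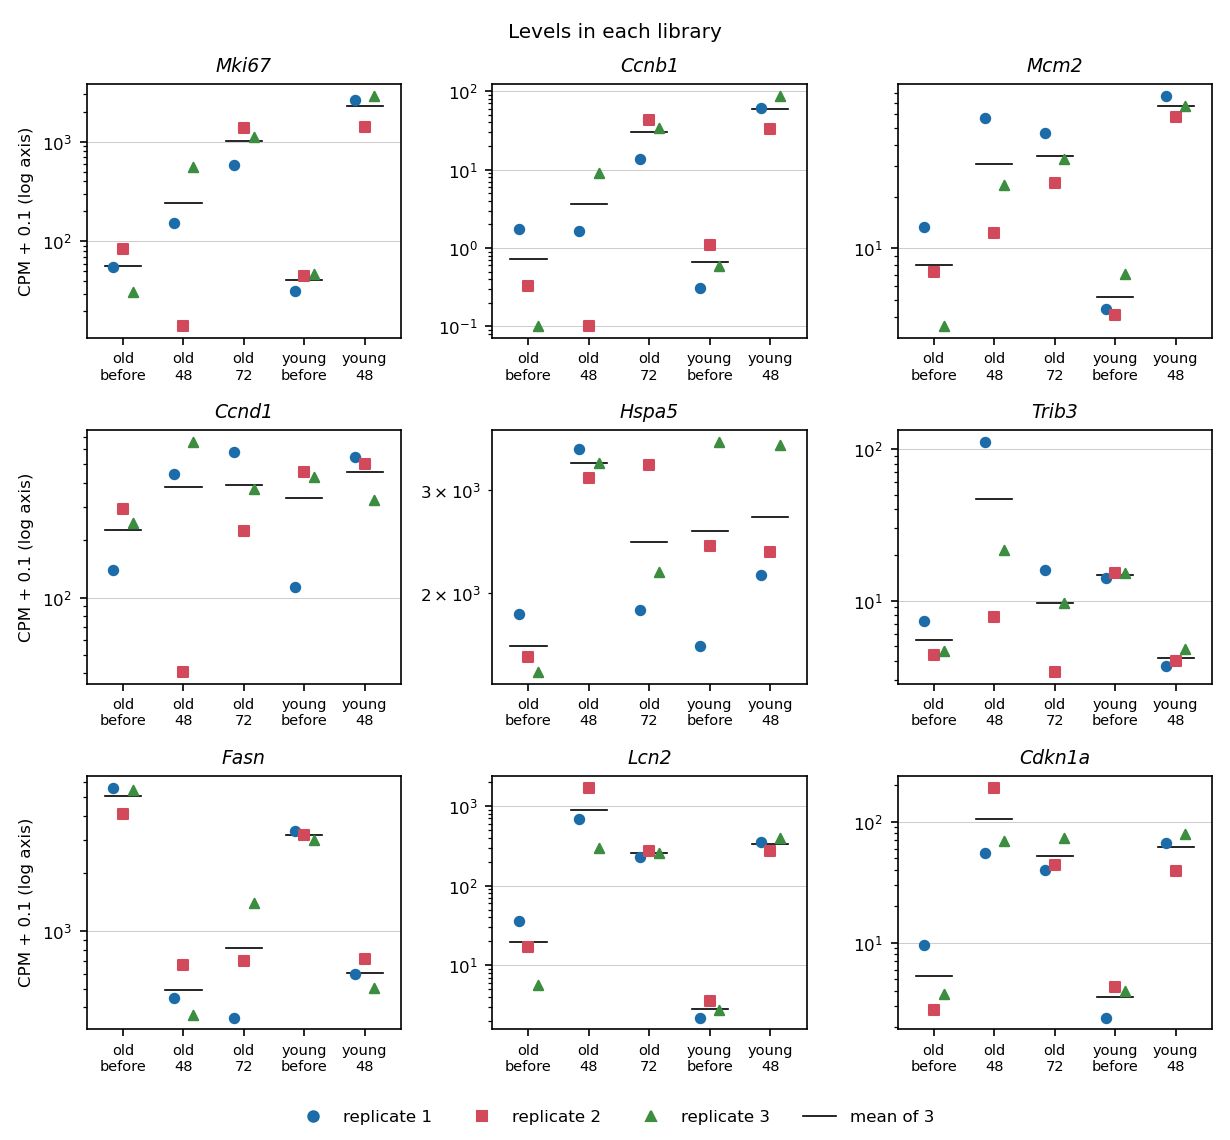
CPM + 0.1 on log axes in each library for 9 genes, in old livers before, at 48 and at 72 and in young livers before and at 48 (symbols give the replicate number, lines the mean of 3). Replicate 2 at 48 in old liver is the lowest of its group for Mki67, Ccnb1, Mcm2, Ccnd1 and Trib3 and the highest for Lcn2, Fasn and Cdkn1a.

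Genes of the unfolded protein response and heat shock, which include chaperones of the endoplasmic reticulum and the cytosol, rose in part. Of 27 tested, 14 rose and 1 fell, with a median log2 change of 0.88, and without replicate 2, 13 rose and 1 fell, with a median of 1.08. All 3 libraries at 48 lay above all 3 before for 13 of the 27. Hspa5, the chaperone BiP, rose from 1839, 1557 and 1464 CPM to 3528, 3149 and 3341 CPM (1.04 ± 0.31, adjusted p = 0.0152). The 3 libraries at 48 lay close together and above all 3 before. Hyou1, a partner of BiP in the endoplasmic reticulum, rose from 364, 214 and 178 CPM to 733, 543 and 689 CPM (1.38 ± 0.31, adjusted p = 0.00210). Manf, a secreted stress factor, rose from 31.7, 20.1 and 9.13 CPM to 54.0, 62.8 and 63.0 CPM (1.56 ± 0.34, adjusted p = 0.00164). Herpud1, a component of the degradation complex of the endoplasmic reticulum, was the member that fell, from 358, 352 and 551 CPM to 208, 166 and 193 CPM (-1.15 ± 0.24, adjusted p = 0.00119).

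Atf4, a transcription factor of this stress response and a member of the same list, rose from 164, 170 and 184 CPM to 345, 341 and 216 CPM (0.80 ± 0.17, adjusted p = 0.00111). Ddit3, the factor CHOP, was at 6.10, 12.5 and 6.16 CPM before and 115, 7.29 and 30.7 CPM at 48 (2.61 ± 0.55, adjusted p = 0.00125). Trib3, a pseudokinase induced by ATF4 and CHOP, was at 7.28, 4.24 and 4.56 CPM before and 111, 7.70 and 21.5 CPM at 48 (3.12 ± 0.69, adjusted p = 0.00183). For both genes replicate 1 was far above the others and replicate 2 within or next to the range before. The call of Ddit3 was lost without replicate 1 at 48, in libraries without Y-linked transcripts and in the compared libraries alone. Its log2 change ran from 1.04 to 3.16 over 19 alternative fits. Fgf21 and Psat1 are not members of the list. Fgf21, a stress hormone of the liver, was at 2.11, 2.46 and 1.60 CPM before and 163, 21.9 and 40.3 CPM at 48 (5.17 ± 1.06, adjusted p = 0.00100). Psat1, an enzyme of serine synthesis, rose from 1.64, 1.12 and 0.456 CPM to 36.2, 27.1 and 13.3 CPM (4.54 ± 0.63, adjusted p = 2.05e-05).

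The promoters of 3 called chaperone genes are shown because they hold the element by which the unfolded protein response is known to act. This endoplasmic reticulum stress element, CCAAT followed after 9 bases by CCACG, was searched as above and found for 6 of 23 members of the list with a window (26.1%), against 0.119% of all 32851 windows. As above, members were counted by gene and the background by single windows, so these shares are unlike measures too. Of the 11 members called higher and with a window, 4 held this element. Matches are again in capitals.
Calr, chr8:84846932-84847181 (minus strand): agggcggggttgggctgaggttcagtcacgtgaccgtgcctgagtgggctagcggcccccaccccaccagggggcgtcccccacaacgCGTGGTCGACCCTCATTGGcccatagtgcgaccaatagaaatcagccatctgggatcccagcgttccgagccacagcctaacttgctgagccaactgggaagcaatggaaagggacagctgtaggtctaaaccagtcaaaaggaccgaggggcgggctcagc
Creld2, chr15:88819396-88819645 (plus strand): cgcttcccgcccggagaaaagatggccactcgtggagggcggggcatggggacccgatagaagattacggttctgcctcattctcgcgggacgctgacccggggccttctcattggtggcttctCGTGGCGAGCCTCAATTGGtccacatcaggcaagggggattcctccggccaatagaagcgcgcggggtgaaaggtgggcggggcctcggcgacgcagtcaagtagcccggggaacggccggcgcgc
Pdia6, chr12:17266339-17266588 (plus strand): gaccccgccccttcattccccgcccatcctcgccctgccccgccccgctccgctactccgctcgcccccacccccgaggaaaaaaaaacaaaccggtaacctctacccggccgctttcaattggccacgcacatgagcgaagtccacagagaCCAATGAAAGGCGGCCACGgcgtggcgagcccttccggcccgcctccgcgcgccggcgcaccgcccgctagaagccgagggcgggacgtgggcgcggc
Calr, which encodes calreticulin, rose from 1055, 846 and 590 CPM to 1946, 1406 and 1454 CPM (0.95 ± 0.22, adjusted p = 0.00247). Creld2, a secreted protein of the same response, rose from 15.3, 6.03 and 5.93 CPM to 28.2, 35.0 and 29.9 CPM (1.78 ± 0.48, adjusted p = 0.00885). Pdia6, a disulfide isomerase, rose from 120, 68.1 and 58.6 CPM to 181, 140 and 160 CPM (0.96 ± 0.27, adjusted p = 0.0113). In each of the 3 genes the groups did not overlap.

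Genes of ribosome biogenesis rose, most in replicate 2. Of 35 tested, 21 rose and 0 fell, with a median log2 change of 0.68, and 13 rose and 0 fell without replicate 2, with a median of 0.48. Replicate 2 was the highest library at 48 for 26 of the 35. Nol6, a factor of the small subunit, rose from 39.0, 31.1 and 23.3 CPM to 60.9, 80.0 and 44.0 CPM (0.99 ± 0.19, adjusted p = 0.000526). Rrp12, which exports pre-ribosomes, rose from 7.28, 7.82 and 6.16 CPM to 27.8, 34.2 and 12.9 CPM (1.81 ± 0.37, adjusted p = 0.000973).

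Acute phase genes rose in all 3 libraries at 48, and most in replicate 2. Of 33 tested, 23 rose and 1 fell, with a median log2 change of 1.36. Without replicate 2, 16 rose and 1 fell, with a median of 1.12. Lcn2, lipocalin 2, which binds bacterial iron carriers, rose from 35.7, 16.8 and 5.48 CPM to 684, 1694 and 296 CPM (5.53 ± 0.81, adjusted p = 3.87e-05, and a log2 change of 4.69 without replicate 2). Serpina3n, a protease inhibitor, rose from 654, 282 and 331 CPM to 3110, 3287 and 1894 CPM (2.71 ± 0.46, adjusted p = 0.000165). Saa1, serum amyloid A, was at 257, 53.8 and 26.0 CPM before and 1129, 1696 and 1056 CPM at 48 (3.53 ± 1.06, adjusted p = 0.0164). Saa2 rose from 111, 43.8 and 13.7 CPM to 1281, 2270 and 962 CPM (4.74 ± 1.24, adjusted p = 0.00657). In these 4 genes the libraries before also differed, with replicate 1 the highest each time. The gene that fell was Hamp2, a hepcidin, with 1.17, 76.4 and 96.7 CPM before and 0.445, 0.405 and 0.614 CPM at 48 (adjusted p = 0.00200), where the library before with Y-linked transcripts was low as well. Hamp, the iron hormone hepcidin itself, was at 108, 165 and 249 CPM before and 263, 411 and 87.3 CPM at 48 and passed in neither fit (adjusted p = 0.452 and 0.976).

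Called changes among markers of inflammatory cells were mostly falls, many of them lost without replicate 2, beside the rise of the acute phase genes. Of 14 markers of Kupffer cells, the resident macrophages of the liver, 0 rose and 7 fell, and 0 rose and 2 fell without replicate 2. Their sum was 1314 to 1841 CPM before and 861, 364 and 1281 CPM at 48, with the lowest value in replicate 2. Csf1r, the receptor for the macrophage growth factor, fell from 116, 132 and 99.2 CPM to 37.1, 26.3 and 79.2 CPM and was called in both fits (adjusted p = 0.00231 and 0.0256). Of 4 tested neutrophil markers 0 passed in either fit, and the sum of the list was 8.90 to 32.9 CPM before and 17.6, 49.2 and 15.5 CPM at 48. Of 4 tested B and plasma cell markers 0 rose and 2 fell, and 1 fell without replicate 2, in sum from 16.7 to 41.3 CPM before to 3.78, 4.05 and 11 CPM. Among 8 tested markers of recruited monocytes, 1 rose and 1 fell, and 0 rose and 1 fell without replicate 2. The sum of that list was 159 to 194 CPM before and 120, 291 and 130 CPM at 48. For T and NK cells, 1 of 2 tested markers fell, and 0 passed without replicate 2. The part of these cells in the changes of other genes was not tested.

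Genes of fatty acid synthesis fell in all 3 libraries at 48 to a like extent. Of 27 lipogenesis genes, 0 rose and 19 fell, with a median log2 change of -1.36, and 0 rose and 16 fell without replicate 2, with a median of -1.45. Averaged over the list, log2(CPM + 1) was 8.53, 8.48 and 8.75 before and 6.71, 6.70 and 6.61 at 48. Fasn, fatty acid synthase, fell from 5610, 4092 and 5446 CPM to 447, 669 and 364 CPM (-3.36 ± 0.34, adjusted p = 6.02e-07). Srebf1, which encodes the main transcription factor of the pathway, fell from 750, 668 and 567 CPM to 43.8, 93.0 and 72.8 CPM (-3.24 ± 0.33, adjusted p = 6.02e-07). Thrsp, a nuclear protein of lipogenesis, fell from 1362, 1423 and 2299 CPM to 18.4, 12.8 and 17.0 CPM (-6.72 ± 0.77, adjusted p = 2.60e-06). Acss2, which makes acetyl-CoA from acetate, fell from 338, 324 and 489 CPM to 19.3, 15 and 27.4 CPM (-4.22 ± 0.43, adjusted p = 6.02e-07). Scd1, the stearoyl-CoA desaturase, fell from 36407, 21605 and 31130 CPM to 1866, 3838 and 541 CPM (-3.84 ± 0.95, adjusted p = 0.00446, and -4.60 without replicate 2). Pnpla3, a lipid droplet hydrolase regulated with this pathway, fell from 36.2, 66.6 and 88.3 CPM to 0.667, 6.68 and 1.02 CPM (-4.48 ± 0.83, adjusted p = 0.000389, and -6.15 without replicate 2). For these 6 genes the groups were far apart, with replicate 2 the highest at 48 for Fasn, Srebf1, Scd1 and Pnpla3 and the lowest for Thrsp and Acss2.

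Among the markers of adipocytes, fat cells that also make fatty acids, 5 of 10 were tested, and 0 rose and 1 fell, with or without replicate 2. Their sum was 2419.5, 1179.8 and 2050.4 CPM before and 76.9, 20.9 and 285 CPM at 48. Nearly all of that sum was Car3, a carbonic anhydrase that rodent hepatocytes also make in quantity, which fell from 2352, 1160.1 and 2030.1 CPM to 7.78, 4.86 and 269.8 CPM (-4.29 ± 0.99, adjusted p = 0.00262, and -3.70 without replicate 2). The other 9 markers summed to 289, 88 and 89 counts before and 311, 79 and 72 counts at 48, so that their range overlapped between the groups. Adipoq, adiponectin, had 1 count in replicate 1 before and 0 in the other 5 libraries.

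Cholesterol synthesis was lower in replicates 1 and 3 and less so in replicate 2. Of 25 genes, 0 rose and 10 fell, and without replicate 2, 1 rose and 17 fell, which moved the median log2 change from -0.96 to -1.40. Replicate 2 was the highest of the libraries at 48 for 20 of the 25. Sc5d, a desaturase late in the pathway, fell from 1802, 1514 and 1987 CPM to 438, 301 and 675 CPM (-1.91 ± 0.29, adjusted p = 5.80e-05). Tm7sf2, a sterol reductase, fell from 120, 148 and 117 CPM to 27.6, 60.4 and 31.5 CPM (-1.69 ± 0.26, adjusted p = 7.32e-05). Lss, which closes the sterol rings, was at 150, 142 and 157 CPM before and 68.0, 149 and 46.0 CPM at 48, so that replicate 2 kept the level before and the fall was called only without it (adjusted p = 0.0135).

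Genes of lipid droplets and of fatty acid use differed among the 3 libraries. Of 21 lipid droplet genes, 7 rose and 0 fell, and 3 rose and 0 fell without replicate 2. Hilpda, a droplet protein induced by fatty acids, was at 1.88, 0.670 and 1.60 CPM before and 9.56, 56.3 and 3.89 CPM at 48 (4.05 ± 0.69, adjusted p = 0.000169, and 2.28 without replicate 2). Plin2, the main coat protein of hepatocyte droplets, was at 262, 308 and 253 CPM before and 578, 1398 and 235 CPM at 48, with replicate 3 below the range before, and was called only with replicate 2 (adjusted p = 0.00456 and 0.156). Of 39 genes of fatty acid oxidation and its regulation, 15 rose and 2 fell, and 9 rose and 2 fell without replicate 2. Cyp4a31, a fatty acid omega-hydroxylase, rose from 3.05, 1.79 and 2.74 CPM to 163, 47.8 and 88.4 CPM (5.29 ± 0.58, adjusted p = 1.64e-06). Hadha, a subunit of the trifunctional enzyme of mitochondrial oxidation, rose from 105, 108 and 101 CPM to 277, 226 and 161 CPM (1.08 ± 0.18, adjusted p = 0.000151). Acaa1b, a thiolase of peroxisomes, fell from 736, 726 and 1238 CPM to 215, 174 and 187 CPM (-2.23 ± 0.40, adjusted p = 0.000292). In these 3 genes the groups did not overlap in any library.

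Detoxifying enzymes fell, and replicate 2 held the lowest levels of many. Of 37 cytochrome P450 genes, 0 rose and 10 fell, with a median log2 change of -1.51, and 0 rose and 8 fell without replicate 2, with a median of -0.91. Averaged over the list, log2(CPM + 1) was 5.75, 7.01 and 7.25 before and 4.52, 4.00 and 6.34 at 48, where the lower value before and the value of 4.52 at 48 belong to the libraries with Y-linked transcripts. In a fit without the libraries of that kind, 15 of the P450 genes fell. Cyp1a2, which metabolises caffeine and many drugs, fell from 411, 732 and 756 CPM to 22.4, 30.2 and 110 CPM (-3.54 ± 0.57, adjusted p = 0.000106). Cyp2a5, the coumarin hydroxylase, fell from 282, 809 and 1102 CPM to 8.22, 13 and 45.8 CPM (-5.03 ± 0.82, adjusted p = 0.000117). Replicate 3 kept the highest level at 48 for both genes, and all libraries at 48 were below all before. P450 and other multigene families share sequence, so the split of counts between close relatives is uncertain.

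Of 42 phase II genes, which conjugate drugs and hormones for excretion, 1 rose and 23 fell, with a median of -1.26, and 1 rose and 17 fell without replicate 2, with a median of -1.29. Inmt, an N-methyltransferase, fell from 390, 539 and 913 CPM to 0.667, 1.22 and 34.2 CPM (-5.67 ± 0.96, adjusted p = 0.000175). Ugt2a3, a glucuronosyltransferase, fell from 450, 477 and 540 CPM to 83.6, 35.7 and 162 CPM (-2.38 ± 0.35, adjusted p = 3.54e-05). Hnmt, which inactivates histamine, fell from 49.3, 30.2 and 46.1 CPM to 6.89, 2.23 and 9.2 CPM (-2.77 ± 0.40, adjusted p = 3.39e-05). The gene that rose was Nnmt, which methylates nicotinamide, from 114, 105 and 86.2 CPM to 288, 388 and 163 CPM (1.46 ± 0.35, adjusted p = 0.00356).

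Other hepatocyte functions fell in part, with replicate 2 the lowest library for most of their genes. Of 27 bile acid genes, 2 rose and 13 fell, and 1 rose and 10 fell without replicate 2. Cyp27a1, an enzyme of the alternative route of bile acid synthesis, fell from 440, 393 and 483 CPM to 100, 47.8 and 180 CPM (-2.00 ± 0.35, adjusted p = 0.000227). Abcb4, the phospholipid exporter of bile, rose from 72.5, 98.5 and 104 CPM to 257, 171 and 153 CPM (1.08 ± 0.33, adjusted p = 0.0182). Of 35 genes of the urea cycle and amino acid breakdown, 0 rose and 17 fell, and 1 rose and 15 fell without replicate 2. Prodh, proline dehydrogenase, fell from 97.0, 153 and 194 CPM to 33.3, 15.4 and 36.0 CPM (-2.39 ± 0.31, adjusted p = 1.07e-05). Of 22 genes of gluconeogenesis and glycogen, 1 rose and 10 fell, and 2 rose and 7 fell without replicate 2. Pygl, the liver glycogen phosphorylase, fell from 461, 401 and 423 CPM to 156, 101 and 182 CPM (-1.55 ± 0.18, adjusted p = 3.08e-06). Ppp1r3g, which targets a phosphatase to glycogen, was at 44.6, 79.3 and 276 CPM before and 0, 6.08 and 0.614 CPM at 48 (adjusted p = 6.42e-06).

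Secreted plasma proteins outside the acute phase split by library. Of 36 complement and coagulation genes, 3 rose and 9 fell, and 4 rose and 3 fell without replicate 2, which moved the median log2 change from -0.35 to -0.02. Replicate 2 was the lowest of the libraries at 48 for 33 of the 36. C8g, a chain of the complement attack complex, fell from 334, 268 and 238 CPM to 187, 75.6 and 125 CPM (-1.12 ± 0.20, adjusted p = 0.000272). Pros1, the anticoagulant protein S, rose from 158, 116 and 121 CPM to 264, 457 and 170 CPM (1.18 ± 0.26, adjusted p = 0.00162) and was highest in replicate 2. Alb, albumin, was at 10940, 8144 and 8593 CPM before and 4768, 4057 and 9078 CPM at 48, so that replicate 3 stayed within the range before. Its fall was called with all libraries (adjusted p = 0.0438) and not without replicate 2 (adjusted p = 0.254). The call of Alb was lost in 14 of 19 alternative fits. Of 21 hepatocyte transcription factors, 1 rose and 1 fell, and 1 rose and 0 fell without replicate 2. Cebpa, the factor C/EBP alpha, was at 804, 743 and 625 CPM before and 453, 103 and 454 CPM at 48 (adjusted p = 0.0215, and 0.112 without replicate 2), while Hnf4a, the master factor of the hepatocyte, was at 1210, 1292 and 1295 CPM before and 1413, 1460 and 1360 CPM at 48 (adjusted p = 0.404). Foxa3, a forkhead factor, rose in replicates 1 and 3 (241 and 259 CPM against 68.9 to 141 CPM before) and was at 94.2 CPM in replicate 2 (adjusted p = 0.0108 with all libraries).

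Genes of the daily clock changed in both directions, and alike in the 3 libraries at 48. Of 19, 4 rose and 12 fell, and 3 rose and 10 fell without replicate 2. Arntl, the clock activator BMAL1, rose from 0.939, 1.56 and 1.83 CPM to 6.45, 13.8 and 19.4 CPM (3.17 ± 0.58, adjusted p = 0.000342). Per3, a clock repressor, fell from 68.1, 157 and 201 CPM to 20, 17.0 and 15.8 CPM (-3.01 ± 0.52, adjusted p = 0.000199). Dbp, an output gene of the clock, fell from 62.2, 86.0 and 55.9 CPM to 12.7, 3.04 and 2.05 CPM (-3.54 ± 0.70, adjusted p = 0.000686). The labels do not give the hour at which any liver was taken, and the hour and the time point cannot be told apart.

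Of 19 immediate early genes, which respond within minutes to stimuli and to handling of tissue, 4 rose and 6 fell, and 0 rose and 5 fell without replicate 2. Zfp36, a decay factor of inflammatory messages, fell from 193, 218 and 390 CPM to 50.2, 57.1 and 48.3 CPM (-2.36 ± 0.28, adjusted p = 3.08e-06). Fos fell from 13.6, 32.2 and 127 CPM to 5.78, 3.65 and 4.91 CPM (-3.58 ± 0.72, adjusted p = 0.000853). The 4 that rose were Fosl2, Ier3, Klf4 and Klf6, each with replicate 2 the highest library. Klf4, a zinc finger factor, was at 5.4, 9.83 and 6.84 CPM before and 5.56, 69.1 and 5.73 CPM at 48, and its log2 change was 1.86 with replicate 2 and -0.35 without it (adjusted p = 0.0173 and 0.527).

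Of 32 genes of matrix and stellate cells, the collagen-producing cells of the liver, 10 rose and 1 fell, and 6 rose and 1 fell without replicate 2. Col4a1, a basement membrane collagen, rose from 38.5, 32.8 and 26.7 CPM to 136, 318 and 84.5 CPM (2.46 ± 0.35, adjusted p = 2.75e-05, and 1.78 without replicate 2). Mmp14, a membrane-bound matrix protease, rose from 45.3, 53.8 and 43.1 CPM to 115, 119 and 92.5 CPM (1.20 ± 0.20, adjusted p = 0.000141). Among 14 markers of stellate cells and fibroblasts, 1 rose and 1 fell, and 2 rose and 1 fell without replicate 2. Their median log2 change was 0.57, and 0.48 without replicate 2, against 0.01 over all genes tested. Their sum was 526 to 723 CPM before and 758, 585 and 565 CPM at 48, with replicates 2 and 3 within the range before. Of 22 genes of the growth hormone and IGF axis, 0 rose and 3 fell, and 0 rose and 2 fell without replicate 2. Ghr, the growth hormone receptor, fell from 878, 755 and 989 CPM to 267, 154 and 313 CPM (-1.84 ± 0.25, adjusted p = 1.70e-05). Of 39 nuclear genes of oxidative phosphorylation, 1 rose and 3 fell, and 0 rose and 2 fell without replicate 2. Of 21 fetal and progenitor genes, 4 rose and 0 fell, and 2 rose and 0 fell without replicate 2. Afp, alpha-fetoprotein, was not among them (10.8, 15 and 18.5 CPM before, 6.00, 21.5 and 17.8 CPM at 48, adjusted p = 0.964).

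Of all genes tested, 14.9% had the 3 libraries at 48 above the 3 before and 16.6% below them. Among 844 risers that passed with and without replicate 2 and did not overlap, the 12 with the highest log2 change were Ly6d, Igdcc4, Adra2a, Lcn2, Cyp4a31, Fgf21, Fam83a, Saa2, Bmper, Psat1, Fabp4 and Cdkn1a. Ly6d, a surface protein of the Ly6 family, rose from 5.4, 4.47 and 1.14 CPM to 168, 428 and 126 CPM (6.03 ± 0.83, adjusted p = 2.07e-05, and 5.34 without replicate 2). Igdcc4, a receptor-like protein of the immunoglobulin superfamily, was at 1.41, 0.447 and 0 CPM before and 38.5, 35.9 and 33.3 CPM at 48, with the libraries at 48 close together (5.81 ± 1.04, adjusted p = 0.000276). Fabp4, a fatty acid carrier of macrophages and adipocytes, was at 0.447 to 1.41 CPM before and 11.1, 38.5 and 1.84 CPM at 48 (adjusted p = 0.000143). Bmper, a secreted binder of bone morphogenetic proteins, was at 2.11, 5.58 and 1.83 CPM before and 13.3, 200 and 21.7 CPM at 48, and its log2 change of 4.61 with all libraries was 2.48 without replicate 2. Adra2a, the alpha-2A adrenergic receptor, was at 0, 0 and 0.228 CPM before, under the 3 counts taken as the floor of a library, and at 3.56, 11.3 and 1.02 CPM at 48. Fam83a was at 0.228 to 2.11 CPM before and 41.8, 48.8 and 3.89 CPM at 48, with replicate 3 near the level before.

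Among 784 fallers chosen the same way, the 12 were Hamp2, Thrsp, Upp2, Chrna4, Ppp1r3g, Inmt, Pnpla5, Cyp2a5, Slc2a4, Etnppl, Pnpla3 and Rgs8. Upp2, a uridine phosphorylase of the liver, fell from 770, 1003 and 1491 CPM to 7.56, 2.43 and 29.5 CPM (-6.37 ± 0.77, adjusted p = 3.70e-06). Etnppl, a lyase of phosphoethanolamine, fell from 80.3, 52.5 and 100 CPM to 4.22, 0 and 5.32 CPM (-4.61 ± 0.80, adjusted p = 0.000213, and -3.98 without replicate 2). Chrna4, a subunit of the nicotinic acetylcholine receptor, was at 41.1, 8.71 and 21.0 CPM before and 0, 0 and 1.02 CPM at 48. Slc2a4, the insulin-regulated glucose transporter GLUT4, was at 4.23, 2.68 and 5.70 CPM before and at most 0.205 CPM at 48. Pnpla5 and Rgs8 were at 1.34 to 7.98 CPM and 2.11 to 5.48 CPM before and at most 0.205 and 0.222 CPM at 48. The last 3 genes were under the floor of 3 counts in every library at 48, so no fold change is given for them.

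Replicate 2 at 48 is described here by the genes in which it differed most from the nearer of its 2 companions, with no test, since the library is a single one. Among the highest above the others were Plin4, Cd14, Fbf1, Ier3 and Pdk4. Pdk4, a kinase that turns off pyruvate dehydrogenase in fasting, was at 1933 CPM in replicate 2, at 128 and 31.3 CPM in the other 2 and at 12.7, 27.9 and 107 CPM before. Plin4, a lipid droplet coat protein, was at 619 CPM against 20.9 and 7.36 CPM, and Cd14, a receptor for bacterial lipopolysaccharide, at 364 CPM against 13.8 and 7.77 CPM. Ier3, a stress-induced early gene, was at 220 CPM against 13.6 and 6.14 CPM, and Fbf1 at 371 CPM against 21.6 and 14.3 CPM. Replicates 1 and 3 thus lay within or near the range before in most of these genes. Plin4, Cd14, Ier3 and Pdk4 were called higher with all libraries, with log2 changes of 3.87, 3.61, 3.99 and 3.82, and none of the 4 passed without replicate 2, where the changes were -0.04, 0.06, 0.99 and 0.72. Fbf1 did not pass with all libraries (adjusted p = 0.196) and was called lower without replicate 2 (-1.68, adjusted p = 0.0236).

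Lowest below the others in replicate 2 were Serpina1e, Akr1c6, C8a, Cyp7a1, Ppp1r3c and Cyp2c54. Cyp7a1, the rate-limiting enzyme of bile acid synthesis, was at 348, 1185 and 756 CPM before and at 62.0, 1.01 and 538 CPM at 48, and it passed in neither fit (adjusted p = 0.138 and 0.283). Akr1c6, a hydroxysteroid dehydrogenase, was at 0.405 CPM in replicate 2 and at 69.8 and 109 CPM in the other 2, against 101 to 130 CPM before. C8a, a chain of the complement attack complex, was at 24.3 CPM against 1220 and 1412 CPM. Ppp1r3c, which targets a phosphatase to glycogen, was at 3.24 CPM against 113 and 203 CPM, and Cyp2c54 at 0 against 25.3 and 67.7 CPM. None of these 6 genes passed the test in old livers at 48 against before, with or without replicate 2.

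**Figure D4:**
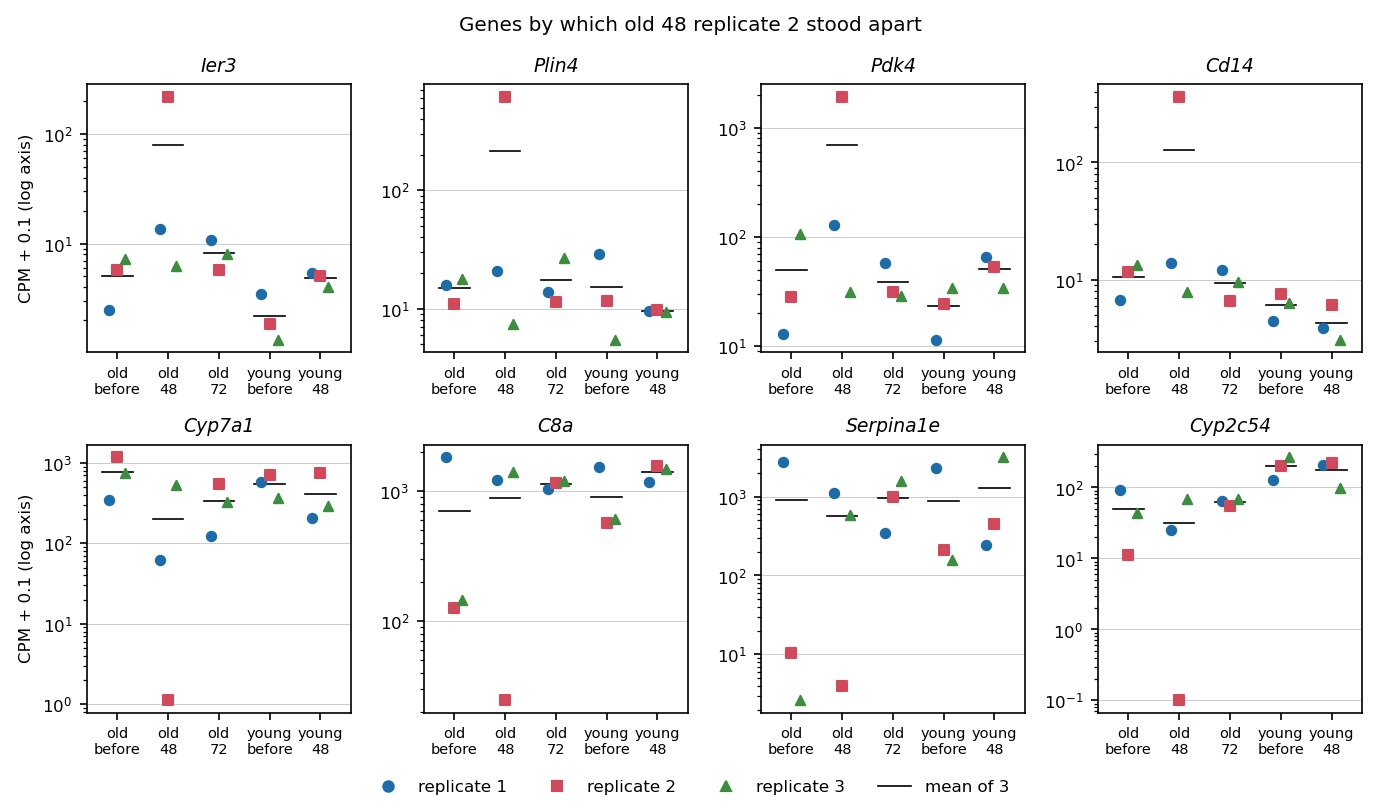
CPM + 0.1 on log axes for 8 of the 12 genes by which replicate 2 at 48 in old liver differed most from its companions, in 5 groups of 3 libraries (lines give the mean of 3). In the upper row that library lies above the other 14 shown for Ier3, Plin4, Pdk4 and Cd14, and in the lower row it lies below the other 14 for Cyp7a1, C8a and Cyp2c54.

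The study asked how regeneration differs between ages, so the change in old livers was set beside that in young livers, where 2973 genes (22.1%) were called at 48 against before, 1645 higher (12.2%) and 1328 lower (9.88%). The young livers showed a rise of all 50 mitosis genes, with a median log2 change of 5.30, and of 42 of 45 replication genes, with a median of 2.54. Mki67 was at 31.4, 45.0 and 46.5 CPM in young livers before and at 2595, 1404 and 2867 CPM at 48, above every old library at 48. The difference between the 2 responses was tested for each gene. It was called for 180 of 13436 genes (1.34%), 47 (0.350%) with a higher and 133 (0.990%) with a lower response in old livers. Without replicate 2 it was called for 47 of 13682 (0.344%), 12 (0.0877%) higher and 35 (0.256%) lower.

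Of the mitosis genes 5 of 50 were called lower in that difference and 1 without replicate 2, and of the replication genes 6 of 45 and 4. Mki67 missed the threshold (log2 difference -3.71, adjusted p = 0.0607, and 0.103 without replicate 2). Rrm1 passed (-2.09, adjusted p = 0.00997, and 0.0313 without replicate 2). Brca1 passed with all libraries (-1.77 ± 0.44, adjusted p = 0.0364) and not without replicate 2 (adjusted p = 0.103). Among the genes with the smallest p were Tmem194, Cbx5 and Gas2l3 with a lower response in old livers. Cbx5, the heterochromatin protein HP1 alpha, was at 153, 179 and 211 CPM in old livers before and 167, 138 and 182 CPM at 48, while in young livers it went from 162, 159 and 155 CPM to 334, 332 and 360 CPM (log2 difference -1.27, adjusted p = 0.00787, and 0.0265 without replicate 2).

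Atrn, Fam20a, Flad1 and Slc25a30 led the genes with a higher response in old livers. Atrn, attractin, rose from 164, 181 and 179 CPM to 413, 442 and 277 CPM in old livers and went from 267, 284 and 268 CPM to 152, 173 and 188 CPM in young livers (1.79, adjusted p = 0.000388, and 0.00204 without replicate 2). Slc25a30, a mitochondrial carrier, was at 12.7, 12.3 and 15.7 CPM before and 85.8, 187 and 43.4 CPM at 48 in old livers and between 15.4 and 39.1 CPM in the 6 young libraries (3.34, adjusted p = 0.00954, and 0.0329 without replicate 2). Trib3 also passed (4.98, adjusted p = 0.0168, and 0.00559 without replicate 2). The other lists showed at most 2 members with a called difference in either direction, apart from 5 of 28 repair genes and 4 of 27 G1 genes with a lower response in old livers, which became 0 and 1 without replicate 2. The median log2 change of the list of the unfolded protein response and heat shock was 0.88 in old and 0.04 in young livers, and 1 of its 27 genes passed the test of the difference (2 without replicate 2).

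**Figure D5:**
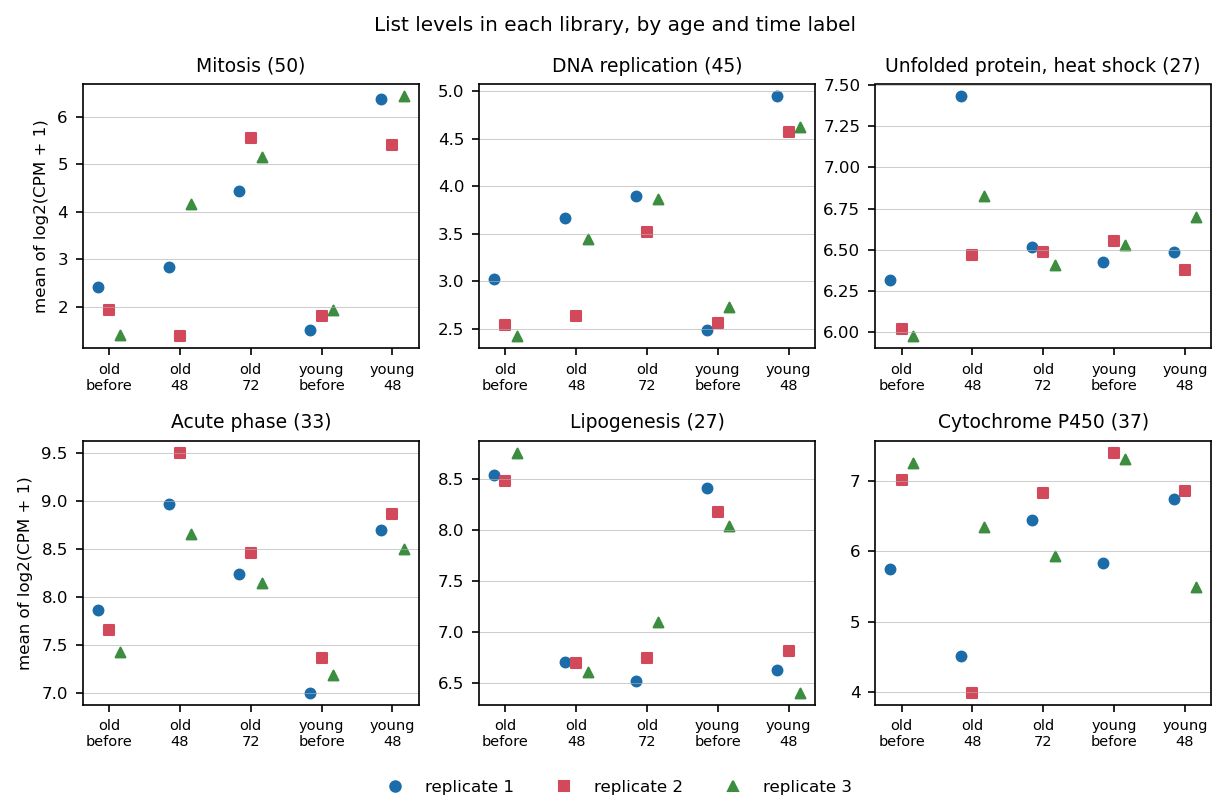
Averages of log2(CPM + 1) for 6 lists in each library of 5 groups (number of genes in brackets, symbols give the replicate number). For mitosis the 3 old libraries at 48 span 1.38 to 4.17, below the 3 young libraries at 48, while for lipogenesis the old and young libraries at 48 overlap.

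Old livers at 72, compared with the same libraries before, had 901 genes higher (6.71%) and 795 lower (5.92%), together 12.6%, among them 48 of 50 mitosis genes higher, with a median log2 change of 3.68. This comparison shares its controls with that at 48. Set directly against old livers at 48, 393 genes (2.92%) differed, 212 (1.58%) higher and 181 (1.35%) lower at 72. Without replicate 2 at 48, 12 genes did (0.0877%), 6 (0.0439%) each way. Of the mitosis genes 18 of 50 were higher at 72 than at 48, and 0 without replicate 2. Ccnb1, at 13.8, 43.1 and 34.1 CPM at 72, was among the 18 (adjusted p = 0.0277, and 0.16 without replicate 2). With total-count scaling the split of the 359 genes then called was 262 higher and 97 lower.

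Of the 7 genes described here for the difference between 48 and 72, 6 also passed without replicate 2. Hnmt was at 6.89, 2.23 and 9.2 CPM at 48 and 20.7, 34.4 and 49.8 CPM at 72 (log2 change 2.52, adjusted p = 0.00204, and 0.0249 without replicate 2). Abca2, a lipid transporter, was at 49.8, 44.8 and 80.6 CPM at 48 and 118, 150 and 190 CPM at 72 (1.39, adjusted p = 0.00204, and 0.0249). Ccl9, a chemokine, and Mettl7a1 were also higher at 72 (1.69 and 1.69, adjusted p = 0.00410 and 0.00475). Atrn returned to 194, 157 and 140 CPM at 72 (-1.21, adjusted p = 0.00101, and 0.0198 without replicate 2). Sgk1, a kinase induced by serum and glucocorticoids, was at 186, 175 and 178 CPM at 48, close together in all 3 libraries, against 51.4 to 69.4 CPM before and 45.9 to 74.1 CPM at 72 (-1.66, adjusted p = 0.00349, and 0.0249 without replicate 2). Ddx28, a mitochondrial RNA helicase, was the exception, with an adjusted p of 0.00691 with all libraries and 0.0739 without replicate 2.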

How the data were processed

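Total RNA of 36 livers, depleted of ribosomal RNA, was sequenced in 12 groups of 3. The authors deposited raw read counts per gene in 1 table for each library, with 21955 rows and 0 rows of the spike-in set that the labels describe. Per the submitters' processing notes, Trimmomatic 0.39, STAR 2.7.5b, SAMtools 1.10 and featureCounts were among the tools and GRCm38 and mm10 the builds, while the annotation and the use of strand are not given in the sources used here, so overlapping and antisense genes are uncertain.

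The counts were analysed with edgeR 4.0.16 in R 4.3.3: TMM scaling, filterByExpr on the 12 groups, the quasi-likelihood test on all 36 libraries and Benjamini-Hochberg adjustment over all genes tested, with calls at an adjusted p under 0.05. The SE of a log2 change was its size over the square root of F. The fit was also run on simulated counts, but the outcome is not reported here. No conclusion is drawn from that run about the calls, which involve a group with a wider spread than the shared estimate. With 4393173 to 4909023 counts in each of the 6 libraries compared, the floor of 3 counts was 0.611 to 0.683 CPM, for counting error only. Members and gene lists were chosen with earlier results of these data known. Genes named by rule were the 12 risers and 12 fallers with the largest change called with and without replicate 2, up to 2 per list and direction by adjusted p, 14 set genes, the 6 highest and 6 lowest of replicate 2, and 4 per direction in the 2 further comparisons. Some genes within this rule are not reported here. Other genes named were chosen after their values were seen. Alternatives were DESeq2 1.42.0, limma 3.58.1 (voom with quality weights), other scalings, no count filter, fewer libraries, a block and each library left out.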

Additional observations from a re-analysis of the deposited data

Results flagged for a closer look

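The response of old livers at 48 differed from that of young livers for 180 genes by the test of the difference itself (edgeR's quasi-likelihood test with Benjamini-Hochberg adjustment), and among them were 4 of the genes named by rule in the comparison of old livers. Brca1, a DNA repair gene, rose less in old livers, with a log2 difference of -1.77 (adjusted p = 0.0364), and did not pass without replicate 2 at 48 (adjusted p = 0.103). Cyp1a2, a drug-metabolising P450, fell more in old livers, with a difference of -3.16 (adjusted p = 0.0303), and did not pass without replicate 2 (adjusted p = 0.0914). Hnmt, which inactivates histamine, differed by -2.86 (adjusted p = 0.00997, and 0.0304 without replicate 2). Srebf1, the regulator of fat synthesis, differed by -1.67 (adjusted p = 0.0461, and 0.0513 without replicate 2, where it did not pass). Of these 4 genes only Hnmt passed both times.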

How the results depend on the processing

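The 3269 calls at 48 against before fell to 225 with the 6 libraries alone, 610 with these less replicate 2, and 2154 with total-count scaling less replicate 2. They lay between 1918 and 3699 with each of the 6 libraries left out in turn, lowest without replicate 3 before. The 180 genes whose response differed between ages became 529 with DESeq2, 349 with a term for Y-linked transcripts, 42 in libraries without these transcripts, 29 with total-count scaling less replicate 2, 1 with the groups compared alone, and 16 to 973 with single libraries left out. The 393 genes between 72 and 48 became 722 with DESeq2, 115 with DESeq2 less replicate 2, 609 with the Y-linked term, 255 without the count filter, 21 with voom, 8 with total-count scaling less replicate 2, 2 in libraries without Y-linked transcripts, 0 with the groups compared alone, and 11 to 1569 with single libraries left out. The highest counts of both came without replicate 3 at 48. The cause of these moves was not tested. Reversed log2 changes were, for Klf4, -0.38, -0.37, -0.37 and -0.18 (DESeq2, compared groups only and total counts, each less replicate 2, and voom), and -0.35 to 2.34 with single libraries left out. For Afp, in the same order, they were -0.30, -0.28, -0.26 and -0.45, then -0.023 with the block, -0.037 with the Y-linked term and -0.27 to 0.41 with single libraries left out. For Hamp voom gave -0.024. For Plin4 the first 3 gave -0.055, -0.061 and -0.064, and single libraries left out -0.041 to 4.44. Of the values for named genes under alternatives, 1953 kept direction and side of the threshold, 6 gained it, 253 lost it and 19 reversed. Same-numbered libraries before and at 48 deviated together with r = 0.37, 0.032 and 0.048, so the numbers were not taken to pair them. With a replicate block 3459 genes were called at 48 against before, 208 between ages and 398 between 72 and 48.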

Other observations

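Serpina1e, a protease inhibitor of the liver, and C8a, a chain of the complement attack complex, varied among libraries of 1 group by far more than between the groups. Serpina1e was at 2730 CPM in replicate 1 before and at 10.3 and 2.51 CPM in the other 2, while at 48 it was at 1094, 3.85 and 579 CPM and at 72 at 345, 978 and 1552 CPM. C8a was at 1840, 126 and 146 CPM before, at 1220, 24.3 and 1412 CPM at 48 and at 1051, 1159 and 1208 CPM at 72. Replicate 1 before, the high library for both genes, was the library of its group with Y-linked transcripts. Replicate 1 at 48 and replicate 3 at 72 held them as well. Both were the highest of their groups for Serpina1e (1094 and 1552 CPM). For C8a that was so at 72 (1208 CPM) and not at 48 (1220 against 1412 CPM in replicate 3). Replicate 3 at 48 and replicates 1 and 2 at 72, which had none, were well above replicates 2 and 3 before in both genes. The part of this difference between libraries was not tested.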
